A study of Homo sapiens with 12 samples.

Results

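The transcripts described here are spliced from 10 genes that host small nucleolar RNAs (snoRNAs) in their introns: GAS5, SNHG1, SNHG5, SNHG6, SNHG7, SNHG8, SNHG12, SNHG15, SNHG16 and ZFAS1. They were picked by gene symbol from a table of 58671 gene rows. All 10 were found, each in 1 row, and all 10 passed a filter of at least 1 FPKM in a group, together with 22087 rows in all. FPKM counts fragments for each kilobase of a transcript and scales them to the size of the library. Total RNA of A549, an epithelial cell line derived from a human lung carcinoma, was sequenced; ERCC spike-in RNAs had been added before rRNA was depleted. The 4 groups were WT (parental) cells 6 h after transfection of poly(I:C) at 500 ng/ml, untreated WT cells, RNase L knockout (RLKO) cells given the same transfection, and untreated RLKO cells. Each group held 3 samples, 12 in all, and the authors' table gave 1 pooled FPKM value per group, so no replicate spread stands behind any level. The sources used here do not say whether the knockout line is a single clone. In such bulk RNA, fewer cells and less RNA per cell cannot be told apart.

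A snoRNA host gene is transcribed and spliced; its introns are trimmed to snoRNAs, which guide ribose methylation (box C/D class) or pseudouridylation (box H/ACA class) of ribosomal RNA. The spliced exons of these hosts code for no known long protein, yet in human cells they are exported, engaged by ribosomes and, for GAS5 and SNHG1 among others, broken down by nonsense-mediated decay. Many hosts begin with a terminal oligopyrimidine (TOP) stretch, a C followed by further pyrimidines, which they share with mRNAs of ribosomal proteins. RNase L is an endoribonuclease that double-stranded RNA such as poly(I:C) switches on through 2-5A, and it cuts single-stranded RNA after UU and UA. Since total RNA was sequenced, the cytoplasmic location of these hosts was not measured here.

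The first 60 bases of annotated transcripts of 9 hosts are shown because the TOP stretch is a feature that the choice of genes did not use. They run 5′ to 3′ and come from GENCODE release 29 (GRCh38), written with T, with the pyrimidine run that opens at a C at the first base in capitals. Where several starts of a gene qualified, the start shared by most transcripts was taken. SNHG6 is not shown, although 3 of its 5 annotated transcripts began with a C and at least 4 further pyrimidines.
GAS5: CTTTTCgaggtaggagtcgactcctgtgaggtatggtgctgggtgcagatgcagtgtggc
SNHG1: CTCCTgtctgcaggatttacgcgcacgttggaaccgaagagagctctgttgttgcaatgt
SNHG5: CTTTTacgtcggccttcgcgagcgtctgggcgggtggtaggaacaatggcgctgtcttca
SNHG7: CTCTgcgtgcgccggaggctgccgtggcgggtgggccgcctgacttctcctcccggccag
SNHG8: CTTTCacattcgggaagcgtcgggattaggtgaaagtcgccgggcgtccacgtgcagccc
SNHG12: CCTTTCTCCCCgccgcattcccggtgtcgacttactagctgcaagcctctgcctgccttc
SNHG15: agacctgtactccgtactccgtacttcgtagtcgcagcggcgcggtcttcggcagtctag
SNHG16: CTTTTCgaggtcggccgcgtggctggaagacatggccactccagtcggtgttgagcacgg
ZFAS1: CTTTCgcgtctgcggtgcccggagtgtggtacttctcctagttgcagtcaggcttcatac

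On GRCh38 GAS5 lies at chr1:173863900-173868882 (minus strand), SNHG1 at chr11:62851988-62855914 (minus strand), SNHG5 at chr6:85660950-85678748 (minus strand), SNHG6 at chr8:66921684-66926398 (minus strand) and SNHG7 at chr9:136721366-136728184 (minus strand). SNHG8 lies at chr4:118278709-118279823 (plus strand), SNHG12 at chr1:28578538-28583132 (minus strand), SNHG15 at chr7:44983023-44986961 (minus strand), SNHG16 at chr17:76557766-76565348 (plus strand) and ZFAS1 at chr20:49278178-49295738 (plus strand). Each position spans the exons and introns of the gene.

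Counted over all annotated transcripts, 23 of 136 transcripts of the 10 hosts (16.9%) began with a C and at least 4 further pyrimidines. The same held for 140 of 731 transcripts (19.2%) of a list of TOP mRNAs and for 3305 of 130418 transcripts (2.53%) of all kept genes. At the level of genes, 8 of the 10 hosts had at least 1 such transcript, against 55 of 68 listed TOP mRNA genes and 2451 of 22087 kept genes (11.1%). SNHG7, with a run of 4 pyrimidines, and SNHG15 had none. A gene with more annotated transcripts is likelier to have at least 1 such start. The hosts had 136 transcripts over 10 genes, against 130418 over 22087 kept genes, so these shares of genes are not like for like. For SNHG1 and SNHG8 the start rested on 1 of 25 and 1 of 5 annotated transcripts. On the transcript whose length the authors' table lists, the run was 6 pyrimidines for GAS5 and 7 for SNHG6. On that transcript it was 3 for SNHG1, 1 for ZFAS1 and 0 for SNHG5, SNHG8, SNHG12 and SNHG16. Their qualifying starts thus belong to other annotated transcripts.

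No host was called changed by poly(I:C) in either genotype. In WT cells 0 of 10 passed a q-value of 0.05 in the authors' deposited table (Cuffdiff), where 7.83% of kept rows did (4.48% higher and 3.35% lower after poly(I:C)), and 1 of 10, SNHG5, had an unadjusted p under 0.05, against 19.2% of kept rows. In RLKO cells 0 of 10 passed, where 0.539% of kept rows did (0.512% higher and 0.0272% lower), and 0 of 10 had an unadjusted p under 0.05, against 3.67% of kept rows. Among protein-coding rows within the level range of the hosts, 9.8% were called in WT and 0.0766% in RLKO. The levels nonetheless spread out in WT: in FPKM the treated level ran between 0.218 of the untreated one for SNHG5 and 2.10 times it for SNHG12. In RLKO the same ratio ran between 0.627 and 1.40, for the same pair of genes. These ratios are descriptions of pooled values, and the difference between the genotypes could not be tested.

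Spike-in levels were higher in poly(I:C)-treated than in untreated cells, by 1.53 times in WT (48 of 49 usable ERCC rows higher) and 1.13 times in RLKO (32 of 49). Log2 changes below are therefore treated minus untreated levels after division by the spike-in factor of each group and addition of a pseudocount of 1. On that scale all kept rows had a median of -0.33 in WT and -0.25 in RLKO. For 12181 protein-coding rows it was -0.70 in WT and -0.24 in RLKO. Of the epithelial markers KRT8 (318 to 944 FPKM) and KRT18 (256 to 750) were high and KRT19 (6.64 to 54.0), CDH1 (2.93 to 4.52) and EPCAM (0.558 to 1.03) lower, while the lung lineage markers NKX2-1 (at most 0.0107) and SFTPB (0.299 to 1.19) were near 0. KRT19 differed between the lines, with 6.64 FPKM in treated and 14.4 FPKM in untreated WT, against 46.3 and 54.0 FPKM in RLKO. Of markers of other cell types, PTPRC and PECAM1 stayed at or below 0.165 FPKM, CD68 stood at 15.9 to 24.1, COL1A1 at 2.06 to 7.17 and VIM at 450 to 623.

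SNHG5, the host of SNORD50 RNAs, was the most abundant of the 10 in every group but treated WT. It had 282 FPKM in treated WT, against 1293 FPKM in untreated WT, and 568 FPKM in treated RLKO, against 905 FPKM in untreated RLKO. The treated WT value thus lay below all 3 other values. Its log2 change was -2.80 in WT (q = 0.0601 in the authors' deposited table) and -0.85 in RLKO (q = 0.9995 in the same table). Among the 10 hosts SNHG5 made up 12.6% of the summed FPKM in treated WT, against 36.3% in untreated WT, and 26.03% in treated RLKO, against 35.6% in untreated RLKO.

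SNHG6 and ZFAS1 stood next to SNHG5 in order of the WT change. SNHG6, which hosts SNORD87, had 121 FPKM in treated WT, against 305 FPKM in untreated WT, and 189 FPKM in treated RLKO, against 218 FPKM in untreated RLKO. ZFAS1, named for its place opposite the start of ZNFX1, had 369 FPKM in treated WT, against 759 FPKM in untreated WT, and 431 FPKM in treated RLKO, against 477 FPKM in untreated RLKO. In both genes the untreated WT value was the highest of the 4 and the treated WT value the lowest. Their log2 changes were -1.93 and -1.65 in WT (q = 0.383 and 0.554 in the authors' deposited table) and -0.38 and -0.32 in RLKO.

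GAS5, first described as a transcript that accumulates in growth-arrested cells, had 347 FPKM in treated WT, against 445 FPKM in untreated WT, and 317 FPKM in treated RLKO, against 275 FPKM in untreated RLKO. Its untreated WT level was the highest of the 4, and its log2 change was -0.97 in WT and 0.03 in RLKO. SNHG16, the host of SNORD1 RNAs, had 85.6 FPKM in treated WT, against 94.0 FPKM in untreated WT, and 72.1 FPKM in treated RLKO, against 74.98 FPKM in untreated RLKO. SNHG8, whose intron holds SNORA24, had 178 FPKM in treated WT, against 172 FPKM in untreated WT, and 155 FPKM in treated RLKO, against 157 FPKM in untreated RLKO. Both genes thus varied little between treated and untreated cells in FPKM, and their log2 changes on the spike-in scale were -0.74 and -0.56 in WT and -0.23 and -0.19 in RLKO.

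At the other end of the order, SNHG1, SNHG7 and SNHG12 had higher values in treated than in untreated WT cells. SNHG1, which hosts SNORD22 and SNORD25 to SNORD30, had 576 FPKM in treated WT, against 332 FPKM in untreated WT, and 269 FPKM in treated RLKO, against 292 FPKM in untreated RLKO. It was the most abundant of the 10 hosts in treated WT and ranked 3 or 4 in the remaining groups. SNHG7, with SNORA17A and SNORA17B in its introns, had 106 FPKM in treated WT, against 60.2 FPKM in untreated WT, and 62.5 FPKM in treated RLKO, against 55.4 FPKM in untreated RLKO. SNHG12, the host of SNORA61, SNORA44, SNORA16A and SNORD99, had 104 FPKM in treated WT, against 49.7 FPKM in untreated WT, and 58.2 FPKM in treated RLKO, against 41.4 FPKM in untreated RLKO. For all 3 the treated WT value was the highest of the 4, with log2 changes of 0.18, 0.20 and 0.45 in WT and -0.29, -0.00 and 0.31 in RLKO. None passed in WT, where their q-values were 0.343, 0.680 and 0.409 in the authors' deposited table. SNHG15, the host of SNORA9, had 68.0 FPKM in treated WT, against 55.9 FPKM in untreated WT, and 59.6 FPKM in treated RLKO, against 49.8 FPKM in untreated RLKO, close together and with log2 changes of -0.32 and 0.08.

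**Figure D1:**
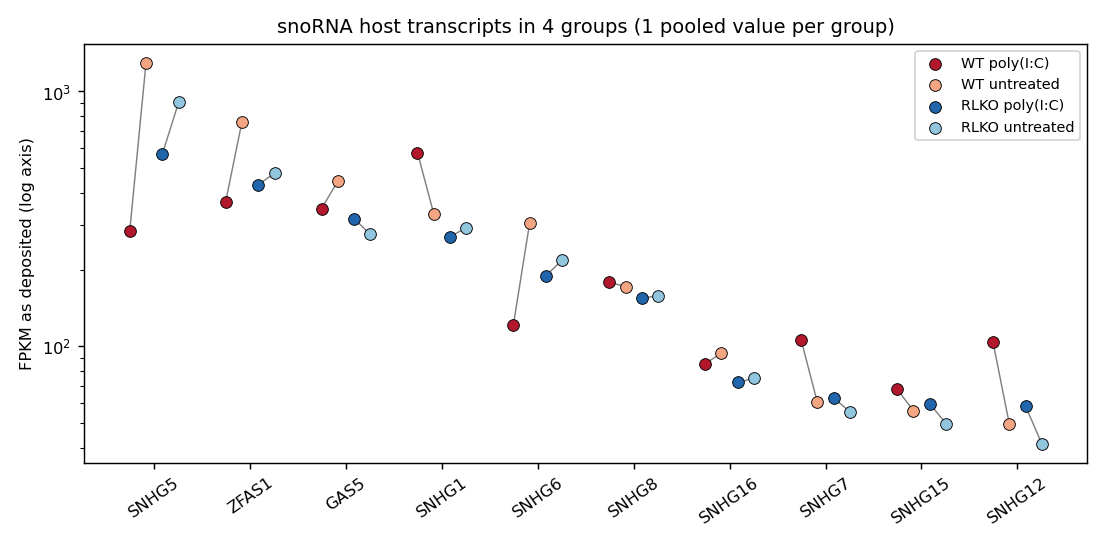
FPKM as deposited (vertical log axis) of the 10 snoRNA host transcripts, ordered by the level in untreated WT cells; each point is a pooled group value, for which no error can be given, and grey lines join treated and untreated cells of a genotype. SNHG5 stood at 282 FPKM in treated WT and 1293 FPKM in untreated WT, while SNHG1 stood at 576 FPKM in treated WT and 332 FPKM in untreated WT.

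As a group the hosts had a median log2 change of -0.65 in WT (range -2.80 to 0.45) and -0.21 in RLKO (range -0.85 to 0.31). Of the 10, 7 lay below 0 in WT and 7 in RLKO on the spike-in scale, where 59.4% of kept rows did in WT and 76.7% in RLKO. In FPKM as deposited 5 lay below 0 in WT and 6 in RLKO. A WT change of -1 or lower was seen in 3 of 10 hosts (SNHG5, SNHG6 and ZFAS1), where 29.3% of all kept rows had one. None of the 10 reached -1 in RLKO, where 8.53% of kept rows did, and none reached 1 in WT, where 14% did. The hosts were also set beside the 2612 protein-coding rows whose level in untreated RLKO lay within that of the hosts, 41.4 to 905 FPKM. Of those rows, whose WT median was lower than that of all protein-coding rows, 75.7% had a WT change of -1 or lower, and their median was -1.58 in WT and -0.48 in RLKO. Among these coding rows SNHG12, SNHG7 and SNHG1 would stand at the 98.4, 97.7 and 97.7 percentile of the WT change, GAS5 at 76.7, ZFAS1 at 46.3, SNHG6 at 34.6 and SNHG5 at 8.77. The 36 other long noncoding rows within the same level range had medians of -1.16 in WT and -0.71 in RLKO. All 3650 kept long noncoding rows, of any level, had a WT median of 0.49, above that of the hosts, and an RLKO median of -0.23; their median difference of responses was 0.74. No test stands behind these placings.

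Set against each other, the WT and RLKO responses of the hosts differed by a median of -0.46 (WT change minus RLKO change), with 7 of 10 below 0, where 54.9% of kept rows lay below 0. The difference was -1.95 for SNHG5, -1.55 for SNHG6, -1.33 for ZFAS1 and -0.996 for GAS5, and reached 0.48 for SNHG1. Differences of -1 or lower were found in 3 of 10 hosts, in 20.2% of kept rows and in 56% of the protein-coding rows within the hosts' level range. No test of the difference was possible on pooled values.

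**Figure D2:**
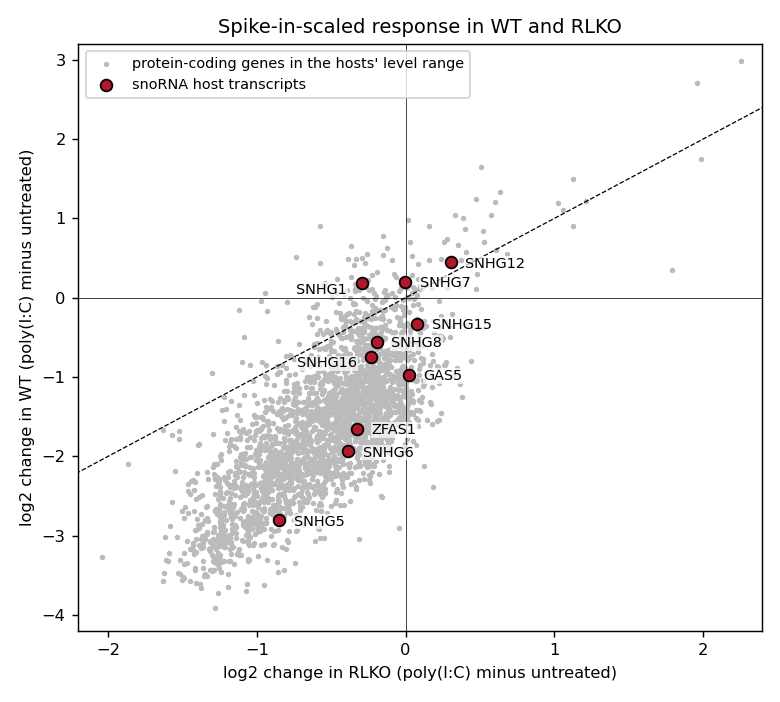
Log2 change with poly(I:C) on the spike-in scale in WT (vertical axis) against RLKO (horizontal axis) for the 10 hosts (red, named) and 2612 protein-coding genes within their level range (grey); the dashed line marks equal change. SNHG5, SNHG6 and ZFAS1 lie among the grey points at WT changes of -2.80, -1.93 and -1.65, and SNHG12, SNHG7 and SNHG1 lie above 0 in WT.

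Before treatment every host was higher in WT than in RLKO cells. The FPKM ratio of untreated WT to untreated RLKO ran between 1.09 for SNHG7 and SNHG8 and 1.62 for GAS5, and 10 of 10 hosts were above 1, where 42.1% of all kept rows and 55.2% of the protein-coding rows within the hosts' level range were. On the spike-in scale the median difference was 0.58 (log2, range 0.41 to 0.99), against 0.15 over all kept rows, of which 65% lay above 0 on that scale. Of the protein-coding rows within the hosts' level range 86.9% lay above 0 on the spike-in scale, with a median of 0.33. All 68 TOP mRNAs in a list described below also had a difference that was not below 0 (median 0.68), as did all but 2 of 36 protein-coding snoRNA hosts (median 0.49). None of the 10 hosts reached 1, where 3.81% of kept rows did. After poly(I:C) the order between genotypes was mixed: 4 of 10 hosts were lower in treated WT than in treated RLKO on the spike-in scale, SNHG5 by -1.15, SNHG6 by -0.78, ZFAS1 by -0.37 and GAS5 by -0.01. SNHG1 (0.95), SNHG12 (0.69) and SNHG7 (0.61) were higher in treated WT. A difference of -1 or lower was found for 1 of 10 hosts, SNHG5, and for 10.3% of kept rows. The median over the 10 was 0.05. Neither comparison between genotypes was tested, and a difference between the lines that has nothing to do with RNase L cannot be told apart from one that does.

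The change after poly(I:C) was set beside 4 properties of the hosts. Across the 10 hosts Spearman's rho of the WT change was -0.73 with the level in untreated RLKO, 0.67 with GC content, 0.56 with transcript length and -0.33 with the share of UU and UA among dinucleotides. The RLKO change gave -0.81, 0.87, 0.47 and -0.21 in the same order, and the first of these shares the untreated RLKO level on both axes. These are descriptions over 10 genes measured in the same pooled libraries. The share of UU and UA, in the annotated transcript whose length the authors' table lists, ran between 3.74% for SNHG7 and 16.3% for GAS5, with a median of 12.98% against 11.8% over protein-coding rows. By length, the 5 shorter hosts (648 to 1698 bases: SNHG6, SNHG8, SNHG5, ZFAS1 and GAS5) had a median WT change of -1.65 and the 5 longer ones (1998 to 3607 bases) 0.18. In the protein-coding rows of the hosts' level range, split at the same 1848 bases, the medians were -2.16 for 595 shorter and -1.42 for 2017 longer transcripts. Of the 136 annotated transcripts of the hosts 48 retain an intron, and the table does not separate transcripts of a gene.

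Other snoRNA hosts and TOP mRNAs were set beside the 10 from lists drawn up for this purpose. Of 19 further noncoding hosts measured, 2 rose in WT and none fell, with a median WT change of -0.14, and none was called in RLKO (median -0.35). SNHG20 rose to 51.5 FPKM in treated WT, against 13.4 FPKM in untreated WT (q = 0.0188 in the authors' deposited table), and SNHG26 rose to 45.1 FPKM, against 11.8 FPKM (q = 0.00546 in the same table). In RLKO SNHG20 had 11.3 FPKM treated and 11.7 untreated, and SNHG26 10.6 and 11.5. That list also holds SCARNA2, itself a small Cajal body RNA and no host.

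Protein-coding snoRNA hosts lay lower. Of 36 measured, 9 of which are also in another list, 4 fell in WT and none rose, with a median WT change of -2.21. None was called in RLKO (median -0.71). RPS12, a protein of the small ribosomal subunit, fell to 182 FPKM in treated WT, against 1182 FPKM in untreated WT. HSPA8, the constitutive HSC70 chaperone, fell to 825 FPKM, against 3947 FPKM, RPL5 to 298 FPKM, against 1376 FPKM, and RPSA to 153 FPKM, against 649 FPKM. Of 68 TOP mRNAs, 6 of which are also in another list, 12 fell and none rose in WT (median -2.80), and none was called in RLKO (median -0.93). RPS21 had the lowest change of those called, -3.86, followed by RPL34, RPL7 and RPL24 at -3.61, -3.61 and -3.32. RPL5 and RPSA are in both lists and were counted among the called genes of each. The hosts' WT median of -0.65 lay above that of both coding lists, and SNHG5, at -2.80, stood at the median of the TOP list. A TOP-like start was annotated for 8 of 10 hosts, in at least 1 transcript each. The lists were not matched for level, and any part of the start in these values was not tested.

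Of 14 snoRNP proteins 1 fell in WT, NOP10, an H/ACA core protein, to 143 FPKM, against 646 FPKM in untreated WT. NOP56, a box C/D core protein, had 570 and 543 FPKM without passing, and the list's median was -1.16 in WT and -0.22 in RLKO. Of 16 nonsense-mediated decay factors Cuffdiff called none in either genotype (1 with an unadjusted p under 0.05 in WT, 0 in RLKO), with medians of -0.38 and -0.25. The most abundant in untreated RLKO, RBM8A and MAGOH of the exon junction complex, had 55.6 and 37.5 FPKM in treated WT, against 182 and 138 FPKM in untreated WT.

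Long noncoding RNAs listed by location moved in both directions. These locations were assigned in drawing up the lists and were not measured here. Of 8 rows listed as cytoplasmic, 2 fell in WT, TP53TG1 (log2 -2.92) and CYTOR (-2.59), and 1 rose, a row of LINC-PINT (0.91). Another row of LINC-PINT in the list, at 0.94, was not called (q = 0.529 in the authors' deposited table). The median of the 8 rows was -0.18 in WT and -0.47 in RLKO. Of 9 rows listed as nuclear, NEAT1, the scaffold of paraspeckles, rose by 2.02 and KCNQ1OT1 by 0.98 on the log2 scale in WT, none fell, and the median was 0.44 in WT and -0.56 in RLKO. None of either list was called in RLKO by Cuffdiff, where 0 of each had an unadjusted p under 0.05.

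**Figure D3:**
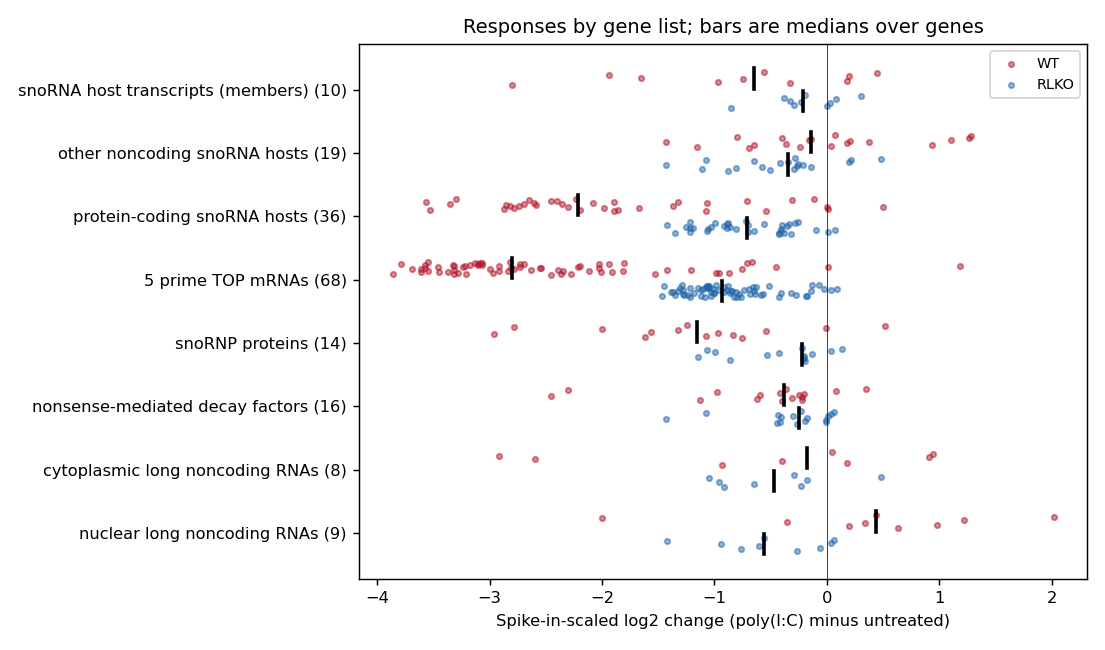
Log2 change with poly(I:C) on the spike-in scale (horizontal axis) for the 10 hosts and 7 gene lists, with the number of rows in parentheses; points are genes, in WT (red, upper) and RLKO (blue, lower), and black bars are medians over genes, not errors. The hosts' medians were -0.65 in WT and -0.21 in RLKO, and those of the TOP mRNAs were -2.80 and -0.93.

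By profile, D2HGDH, NOP2, E2F4, PCGF3 and BOLA1 lay nearest to the hosts' median profile over the 4 groups (Euclidean distance of centred log2 levels 0.05 to 0.07, where the row's mean was 10 FPKM or more). Of the hosts themselves SNHG16 (0.11) and SNHG8 (0.12) lay nearest and SNHG5 (1.68) farthest. With 4 points a profile, many genes lie close, and nothing further is read from these names.

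The snoRNAs inside the hosts were measured as separate rows. GENCODE annotates 26 snoRNA genes on the same strand within 9 of the 10 hosts, and none as a separate gene within GAS5. Of the 26, 7 were listed at 0 in every group, 18 passed the filter and 14 of these had a value above 0 in each group. Values of 0 may be failed estimates; SNORD50B, in SNHG5, was among those at 0, and SNORD1B in SNHG16, SNORD87 in SNHG6, SNORD30 in SNHG1 and SNORD12 in ZFAS1 were at 0 in some groups. Cuffdiff called none of the 18 in either genotype, where 0 had an unadjusted p under 0.05. Over all kept rows 7.83% were called in WT and 0.539% in RLKO. Of 402 other kept snoRNA genes, 4 were called in WT and 0 in RLKO. Of the 18, SNORD30 and SNORD1B were marked as not tested, so neither could have been called. The following are therefore values and not changes shown by a test.

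SNORA61 and SNORA9 are printed whole as H/ACA RNAs, each in 1 row, whose WT changes lay far from those of their hosts; both guide pseudouridylation and end in the class's ACA box, in capitals, 3 bases before the 3′ end. SNORA61 lies at chr1:28579764-28579893 on the minus strand in an intron region of SNHG12, and SNORA9 at chr7:44985378-44985510 on the minus strand within SNHG15 (GRCh38).
SNORA61: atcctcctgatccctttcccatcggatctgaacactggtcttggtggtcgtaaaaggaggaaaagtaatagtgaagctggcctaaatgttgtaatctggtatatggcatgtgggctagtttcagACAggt
SNORA9: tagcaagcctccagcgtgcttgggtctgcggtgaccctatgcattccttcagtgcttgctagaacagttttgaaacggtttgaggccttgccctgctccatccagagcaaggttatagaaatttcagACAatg

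SNORA61 had 569 FPKM in treated WT, against 3519 FPKM in untreated WT, and 641 FPKM in treated RLKO, against 997 FPKM in untreated RLKO. Its host SNHG12 had its highest value in the very group, treated WT, in which SNORA61 had its lowest. SNORA9 had 76.0 FPKM in treated WT, against 1222 FPKM in untreated WT, and 188 FPKM in treated RLKO, against 303 FPKM in untreated RLKO, while its host SNHG15 varied between 49.8 and 68.0 FPKM. SNORA44 in SNHG12 had 71.6 FPKM in treated WT, against 107 FPKM in untreated WT, and 12.5 FPKM in treated RLKO, against 66.6 FPKM in untreated RLKO. Its log2 change was -1.18 in WT and -2.49 in RLKO, so the RLKO change was the lower one. SNORA16A in SNHG12 is annotated as a pair of overlapping rows that can share reads, with WT changes of -4.47 and -1.45. SNORA24 in SNHG8 had 125 FPKM in treated WT, against 781 FPKM in untreated WT, and 192 FPKM in treated RLKO, against 327 FPKM in untreated RLKO. SNORA17B in SNHG7 is annotated as a pair of overlapping rows that can share reads. The more abundant row had 1951 FPKM in treated WT, against 7949 FPKM in untreated WT, and 1984 FPKM in treated RLKO, against 3666 FPKM in untreated RLKO. SNORA61, SNORA9, SNORA24 and this SNORA17B row had their highest value in untreated WT cells.

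All 9 H/ACA rows with a value in each group were lower in FPKM in treated than in untreated cells, in WT and in RLKO alike, though 4 of them are overlapping pairs (median log2 change -2.84 in WT and -1.38 in RLKO). Of 107 H/ACA rows outside the hosts, 77 were lower in WT and 93 in RLKO, with medians of -1.34 and -0.97. The box C/D rows were mixed. SNORD22 in SNHG1 had 603 FPKM in treated WT, against 2347 FPKM in untreated WT, and 417 FPKM in treated RLKO, against 1158 FPKM in untreated RLKO. In ZFAS1, SNORD12B had 377 FPKM in treated WT, against 112 FPKM in untreated WT, and SNORD12C had 224 FPKM in treated WT, against 238 FPKM in untreated WT. These WT changes lay above that of ZFAS1. A further RNA in ZFAS1, SNORD12, was listed at 0 in treated WT, against 32.6 FPKM in untreated WT, and at 0 in both RLKO groups. Over the 14 rows, 11 had a lower change than their host in WT and 11 in RLKO.

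**Figure D4:**
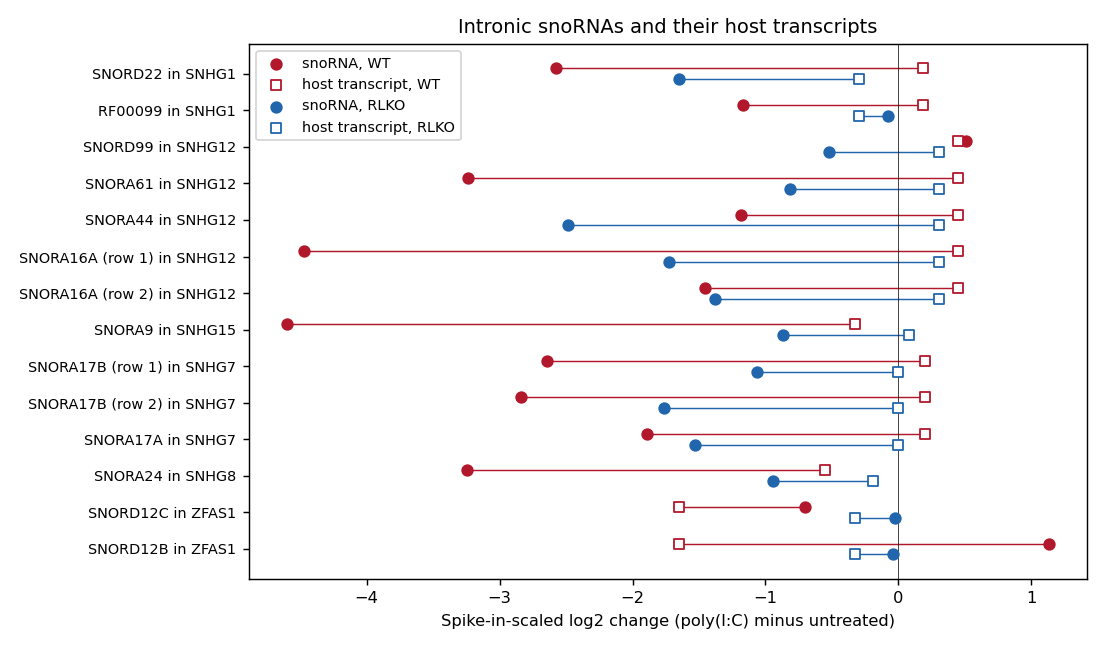
Log2 change with poly(I:C) on the spike-in scale (horizontal axis) of the 14 snoRNA rows with a value in each group (filled circles) and of the host transcript of each (open squares), in WT (red, upper) and RLKO (blue, lower). SNORA9 and SNORA61 lie at -4.60 and -3.24 in WT with hosts at -0.32 and 0.45, and SNORD12B lies at 1.14 with its host ZFAS1 at -1.65.

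Genes on the opposite strand overlap 6 of the 10 hosts, and the sources used here do not say whether reads were counted by strand, so reads of such pairs may not be separable. Of 12 opposite-strand neighbours that overlap a host or lie within 1 kb of it, a rule chosen after values were seen, 10 were higher in FPKM in treated than in untreated WT, where 53.8% of kept rows were, and 5 in RLKO, where 32.4% were. Of these 10, AC015802.4, AC015802.6, ST6GALNAC2 and MCMDC2 passed the filter of 1 FPKM only through treated WT. Their higher value there was thus fixed by the filter. The shares of kept rows cover genes of all levels, so nothing is read from these counts. Of the 12 neighbours 1 was called: PRSS12, next to SNHG8, rose to 5.26 FPKM in treated WT, against 0.956 FPKM in untreated WT. ZNFX1, an RNA helicase gene that responds to interferon and overlaps the start of ZFAS1, had 113 FPKM in treated WT, against 9.54 FPKM in untreated WT, and 49.1 FPKM in treated RLKO, against 11.3 FPKM in untreated RLKO, without passing (q = 0.0921 in WT in the authors' deposited table). Its part in the values of ZFAS1, which went the other way, was not tested. GAS5-AS1, at the end of GAS5, had 22.6 FPKM in treated WT, against 4.67 FPKM in untreated WT. In RLKO GAS5-AS1 had 4.76 FPKM treated and 6.25 FPKM untreated.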

How the data were processed

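RNA-seq of 12 samples in 4 groups of 3 was analysed from 1 table. Per the submitters' processing notes, Cuffdiff 2.2.1, Bowtie2 2.0.2, TopHat2 2.0.6, Trimmomatic 0.32 and FastQC were used with GRCh38.p12; the sources used here give no settings. The authors gave 1 FPKM value per group (a unit taken from the tool and the values, as the file headers name none), p-values and q-values per the file headers for treated against untreated cells within a genotype, and each gene's length and GC content in percent. The p-values rest on the spread between 3 samples that may be technical replicates, although the series' design text calls them independent. Read depth is unknown.

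Here, rows with status HIDATA (86) and repeated identifiers (45) were left out, rows with at least 1 FPKM in a group kept, and levels divided by the median ratio of 49 ERCC rows to their geometric mean. Log2 changes used a pseudocount of 1, which understates changes of low genes. Calls are the deposited q under 0.05, from a test not scaled to the spike-ins; differences between genotypes carry no test. Gene classes, coordinates and sequences came from GENCODE 29. Members and lists were chosen with earlier results of these data known. Named were all members, up to 4 called genes per list with the largest WT change (or, where fewer than 2 passed, those and the 2 most abundant in untreated RLKO), the 5 nearest profiles, and up to 2 snoRNAs per host by level in untreated RLKO. Further snoRNAs, such as SNORA16A and SNORD12, were named outside this rule. A gene among the planned checks is not reported here. Scripts were tested on simulated data. Python 3.11.15 was used.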

Additional observations from a re-analysis of the deposited data

How the results depend on the processing

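No paired analysis was possible because the table holds 1 pooled value per group, and for the same reason no sample could be left out and no count test such as DESeq2 could be run. No host was called in either genotype when the deposited p-values were adjusted by Benjamini-Hochberg over kept rows; at a q of 0.1, 1 host, SNHG5, was called in WT and none in RLKO. Scaling moved the medians. In FPKM as deposited the hosts' median was -0.040 in WT, -0.036 in RLKO, -0.027 for the difference of responses, 0.29 for untreated WT minus untreated RLKO and 0.19 for treated WT minus treated RLKO. With median-ratio scaling over kept rows the first 4 were -0.10, 0.15 (the sign turned), -0.28 and 0.38. The median over all kept rows moved to 0.11 and 0.06 in WT under these scalings, against -0.33 on the spike-in scale. Single hosts changed sign in FPKM as deposited, SNHG8 to 0.055 and SNHG15 to 0.28 in WT and SNHG7 to 0.17 in RLKO. With median-ratio scaling SNHG15 was at 0.22 in WT, and in RLKO SNHG1 was at 0.074, SNHG7 at 0.36, SNHG8 at 0.17, SNHG16 at 0.13 and ZFAS1 at 0.045. The 4 hosts without an opposite-strand overlap, chosen after seeing the data, had medians of -0.44 for the WT change and 0.46 for untreated WT minus untreated RLKO. The higher level of all 10 hosts in untreated WT held under each scaling, as did WT changes of -1 or lower in 3 hosts. In FPKM as deposited, the difference of responses was below 0 in 5 hosts and at -1 or lower in 2, against 7 and 3 on the spike-in scale. The protein-coding rows of the hosts' level range then had a WT median of -0.97, with 48.8% at -1 or lower, and 29.1% had a difference of responses of -1 or lower; with median-ratio scaling these were -1.04, 51.9% and 45.2%. A pseudocount of 0.1, other filters and leaving out SNHG5 moved no median by 0.1.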
